A study of Mus musculus with 4 samples.

Results

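Iron homeostasis was followed through 9 genes, chosen by name among the 16442 genes of the deposited ribosome footprint table: the ferritin genes Fth1 and Ftl1, the ferritin receptor for autophagy Ncoa4, the transferrin receptor Tfrc, the iron transporters Slc11a2 and Slc40a1, the iron regulatory proteins Aco1 and Ireb2, and the heme oxygenase Hmox1. All 9 were found in the table and all 9 passed the filter on low values. The samples were leukemia stem cells, the cells that propagate a leukemia, taken from the bone marrow of leukemic C57BL/6 mice, either WT or carrying a knockout (KO) of the transcription factor gene Rreb1, with 2 libraries per group. Ribosome footprinting reads the stretches of mRNA that ribosomes shield from nuclease, and the input RNA of the same lysates gives the mRNA level. The ratio of the 2 is the translational efficiency (TE). How the leukemia was started, which cells lost Rreb1, and the age and number of the mice are not given in the sources at hand; p-values measure only the spread between these libraries, which may be technical.

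Cells control iron largely at the level of mRNA. Iron responsive elements (IREs) are hairpins in the untranslated regions of a small set of mRNAs, and when iron is scarce they are bound by the iron regulatory proteins IRP1, encoded by Aco1, and IRP2, encoded by Ireb2. Binding near the start of the ferritin and ferroportin (Slc40a1) mRNAs blocks translation, whereas binding behind the coding sequence of Tfrc, and of an isoform of Slc11a2, protects Tfrc mRNA from decay. Blood-forming and leukemic cells take up iron through the transferrin receptor and store the surplus in ferritin shells built of heavy and light chains.

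The labels could not be checked by the targeted gene. Footprints of Rreb1 were 14.1 and 12.8 RPKM (reads per kilobase and library size) in the WT libraries, given here and below as replicate 1 then 2, and 12.9 and 8.19 RPKM in the KO libraries, and its RNA was higher in KO, at 6.10 and 6.93 against 3.33 and 3.25 RPKM. For KO replicate 2 the label on genotype names Rreb2 rather than Rreb1; its title placed it in the KO group. "KO" below means the libraries labelled so, and each direction rests on the labels. Footprint depth was 878068 and 656249 assigned reads in WT and 364087 and 274183 in KO, so KO footprint values rest on fewer reads. Kit marks stem and progenitor cells but also mast cells. Its RNA was 1.97 and 2.32 RPKM in WT and 7.36 and 7.15 RPKM in KO. Summed RNA of mast cell and basophil markers, Kit among them, was also higher in KO, at 307 and 297 against 33.1 and 30.4 RPKM. Kit thus does not tell these cell types apart here. RNA of the neutrophil gene S100a8 was 4257 and 3923 RPKM in WT and 1173 and 1506 RPKM in KO. Of 9 neutrophil markers 6 were lower and 2 higher in RNA of both KO libraries, beside 37.6% and 44.4% of all tested genes. Transcripts of mature myeloid cells were thus abundant in both groups.

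The data gave a split picture of the iron genes. Footprints of both ferritin chains, of Aco1 and of Hmox1 were lower in both KO libraries than in both WT libraries, with pooled WT over KO ratios of 2.80 to 3.49, those of Tfrc were higher, with a pooled KO over WT ratio of 2.07, and those of Ireb2 were lower by less. Those of Ncoa4, Slc11a2 and Slc40a1 overlapped between the groups. In footprints 0 of the 9 passed the test (limma on log2(RPKM + 1) over 6389 genes, adjusted p 0.105 to 0.96), and 0 passed limma-voom on the recovered reads. Without KO replicate 2, Aco1, Ftl1 and Hmox1 passed, 3 of the 9, in a fit that called 17.2% of all tested genes. With all 4 libraries, 1.06% of all tested genes passed in footprints (0.595% higher, 0.47% lower in KO). At an unadjusted p under 0.05 stood 5 of the 9, 1 higher and 4 lower, against 18.2% of all tested genes (5.84% higher, 12.4% lower). In RNA, 6 of the 9 fell (Hmox1, Aco1, Ncoa4, Fth1, Slc11a2 and Ftl1), Tfrc rose, and Ireb2 and Slc40a1 did not pass. Since 60.8% of all tested genes passed in RNA (33.1% higher, 27.7% lower), 7 of 9 is not far from the background; at an unadjusted p under 0.05 it was also 7, against 65% (35.7% higher, 29.3% lower). In TE 0 of the 9 passed limma, as did 0% of all genes, with Hmox1 the single member at an unadjusted p under 0.05 (13% of all tested genes, 3.02% higher and 9.99% lower).

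**Figure D1:**
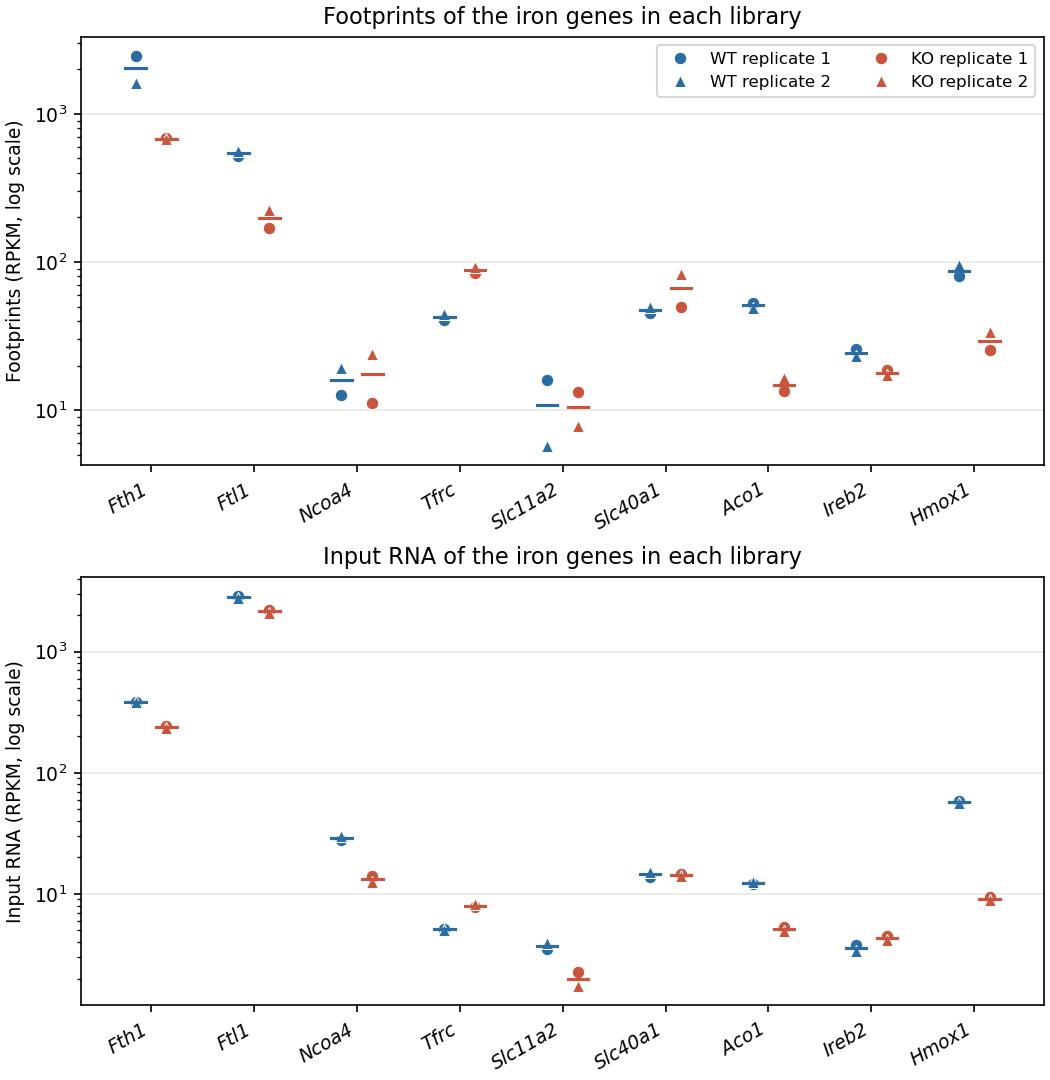
Footprints (top) and input RNA (bottom) of the 9 iron genes, in RPKM on a log axis; points are single libraries, bars the group means. Fth1, Ftl1, Aco1 and Hmox1 lie lower in KO in both panels, Tfrc lies higher in both, and Ncoa4 is lower in RNA while its footprints overlap.

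RNA of the 2 ferritin genes and of Tfrc moved in opposite directions, so the RefSeq sequence just upstream of their start sites is shown (build GRCm38.p6, 250 bases, 5′ to 3′ on the gene's strand, ending at the base before an annotated start). The Fth1 window is chr19:9982396-9982645 on the plus strand, before the downstream one of its 2 listed starts. With 2 starts, the most downstream one was taken whose window holds no other start. The Ftl1 window is chr7:45459887-45460136 on the minus strand. The Tfrc window is chr16:32608646-32608895 on the plus strand, before the upstream one of its 2 listed starts. Capitals mark ACGTG or GCGTG, the core of the element bound by hypoxia-inducible factors, of which Tfrc is a known target, on either strand (CACGT or CACGC where it lies on the other strand).
Fth1: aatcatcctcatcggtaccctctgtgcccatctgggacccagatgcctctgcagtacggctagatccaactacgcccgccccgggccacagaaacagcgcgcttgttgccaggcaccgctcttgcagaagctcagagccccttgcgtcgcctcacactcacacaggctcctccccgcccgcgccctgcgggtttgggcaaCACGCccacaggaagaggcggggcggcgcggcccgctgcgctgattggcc
Ftl1: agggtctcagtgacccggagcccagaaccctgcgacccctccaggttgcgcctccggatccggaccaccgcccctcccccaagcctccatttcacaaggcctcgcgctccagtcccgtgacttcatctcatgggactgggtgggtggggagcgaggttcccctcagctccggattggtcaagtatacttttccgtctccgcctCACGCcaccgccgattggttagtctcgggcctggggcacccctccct
Tfrc: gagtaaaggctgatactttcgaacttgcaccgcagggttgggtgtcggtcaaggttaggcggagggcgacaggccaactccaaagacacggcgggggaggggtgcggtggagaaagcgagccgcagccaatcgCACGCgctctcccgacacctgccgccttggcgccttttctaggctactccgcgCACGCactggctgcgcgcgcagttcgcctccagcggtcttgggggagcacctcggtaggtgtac
The core occurred once in the Fth1 window, 50 bases before the start, once in the Ftl1 window, 47 bases before it, and at 64 and 117 bases before it in the Tfrc window, each time as GCGTG on the other strand. The window of the other Fth1 start, not shown, held 0 matches, and that of the other Tfrc start held 1 ACGTG and 2 GCGTG. Of 32851 mouse promoter windows of this length, 38.6% hold ACGTG or GCGTG. The antioxidant element TGACNNNGC, bound by NRF2, was in none of the 3 windows and in 10.2% of all windows, on either strand. Sequence beyond these 250 bases was not searched, so an element further upstream would be missed. The promoter table matched 6 of the 9 genes; Slc11a2, Slc40a1 and Hmox1 had no entry.

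Ferritin heavy chain, Fth1, carries the ferroxidase site that oxidises iron for storage. Its footprints were 2444 and 1610 RPKM in WT and 683 and 675 RPKM in KO, from 1217, 599, 141 and 105 reads. Both KO libraries lay below both WT libraries, and the WT libraries differed from each other by more than the KO libraries did. The log2 difference, KO minus WT with ± its SE as in all that follow, was -1.54 ± 0.31 (adjusted p by limma = 0.124). Pooling each group's reads, WT exceeded KO 3.07 times (exact 95% limits 2.69 and 3.52, from counting error alone). RNA of Fth1 was 384 and 388 RPKM in WT and 242 and 236 RPKM in KO, with replicates close together. It fell by 0.69 log2 units (SE 0.07, limma with adjusted p = 0.000119). TE was 6.36 and 4.15 in WT and 2.82 and 2.85 in KO, again without overlap, a log2 difference of -0.86 ± 0.36 (adjusted p by limma = 0.41).

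Ferritin light chain, Ftl1, supports the iron core inside the shell. Its footprints were 522 and 563 RPKM in WT and 169 and 225 RPKM in KO, from 253, 204, 34 and 34 reads. The groups did not overlap, and the log2 difference was -1.47 ± 0.28 (adjusted p by limma = 0.109). RNA was 2867 and 2796 RPKM in WT and 2216 and 2100 RPKM in KO. Ftl1 RNA thus fell by less than Fth1 RNA did, by 0.39 log2 units (SE 0.09, limma with adjusted p = 0.00853), and this call was lost without WT replicate 1 (adjusted p = 0.259), without WT replicate 2 (adjusted p = 0.228) and with no filter on low values (adjusted p = 0.0919). The difference between the 2 chains was not tested. TE was 0.182 and 0.202 in WT and 0.0768 and 0.107 in KO, a log2 difference of -1.08 ± 0.61 (adjusted p by limma = 0.499).

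The 2 ferritin chains were far apart in level on both scales. Per length, Ftl1 RNA exceeded Fth1 RNA in every library, Fth1 over Ftl1 being 0.134 and 0.139 in WT and 0.109 and 0.112 in KO. In footprints the order was turned, with Fth1 over Ftl1 at 4.68 and 2.86 in WT and 4.04 and 3.01 in KO, and the groups overlapped in this ratio. The TE of Ftl1 lay near the bottom of all tested genes in every library, at percentiles 0.11 to 0.454, while Fth1 lay at percentiles 53.4 to 82.5. Mouse ferritin has processed pseudogenes that resemble the mRNAs, and reads could be shared with them. Footprints of Ftl2-ps, Ftl1-ps1, Ftl1-ps2 and Fth-ps2 were listed at 0 in all 4 libraries. RNA of Ftl2-ps was 75.6 and 59.7 RPKM in WT and 52.1 and 41.5 RPKM in KO, and that of Ftl1-ps1 was 12.4, 21 and 12.8, 11.1 RPKM. The handling of multiply mapping reads is not stated in any source at hand, so the RNA level and the TE of Ftl1 and Fth1 are uncertain to that extent.

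Ncoa4 delivers ferritin to the lysosome, where its iron is released. Its RNA was 27.6 and 29.9 RPKM in WT and 14.1 and 12.5 RPKM in KO, and it fell by 1.06 log2 units (SE 0.08, limma with adjusted p = 5.14e-05). Footprints were 12.7 and 19.3 RPKM in WT and 11.1 and 24.1 RPKM in KO, from 22, 25, 8 and 13 reads. The KO libraries lay on either side of both WT libraries, so lower RNA stood beside footprints with no detectable difference (log2 difference 0.06 ± 0.50; adjusted p by limma = 0.959). TE was 0.479 and 0.657 in WT and 0.806 and 1.86 in KO, a log2 difference of 1.12 ± 0.54 (adjusted p by limma = 0.45).

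**Figure D2:**
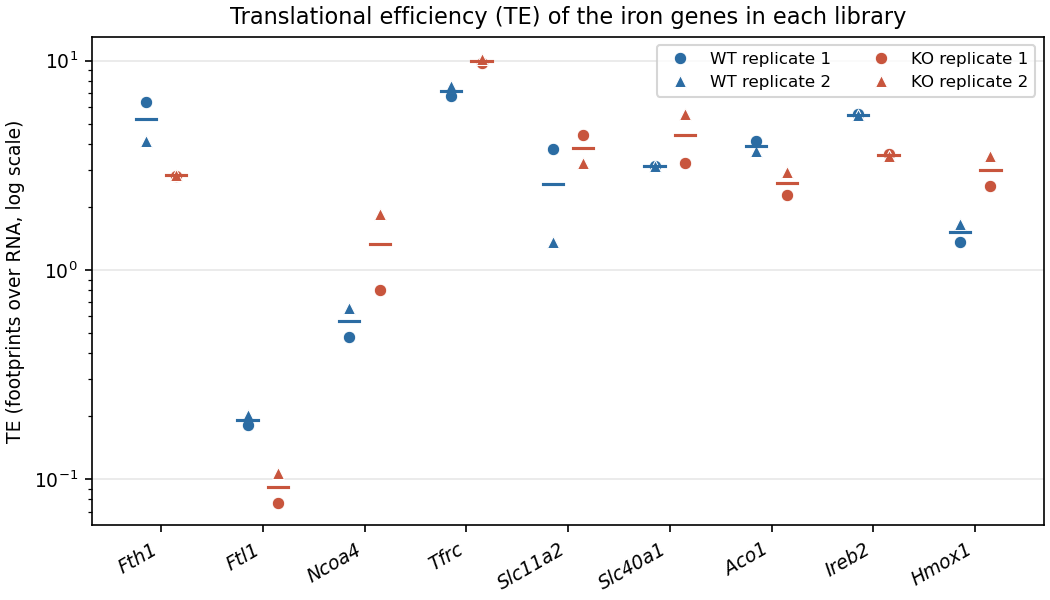
TE of the 9 iron genes, the ratio of footprints to RNA, on a log axis; points are single libraries and bars the group means. Ftl1 lies lowest and Tfrc highest, Fth1, Ftl1, Aco1 and Ireb2 are lower in both KO libraries, and Tfrc, Hmox1, Ncoa4 and Slc40a1 are higher in both.

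Tfrc, the receptor that brings transferrin-bound iron into the cell, showed the reverse of ferritin. Its footprints were 40.6 and 44.6 RPKM in WT and 83.9 and 92.8 RPKM in KO, from 84, 69, 72 and 60 reads. Both KO libraries lay above both WT libraries, with a log2 difference of 1.04 ± 0.28 (adjusted p by limma = 0.181) and a pooled KO over WT ratio of 2.07 (exact 95% interval 1.63 to 2.63, counting error only). RNA of Tfrc was 5.17 and 5.01 RPKM in WT and 7.72 and 8.21 RPKM in KO. It rose by 0.56 ± 0.08 log2 units (adjusted p by limma = 0.000936). TE of Tfrc was 6.74 and 7.59 in WT and 9.73 and 10.2 in KO, a log2 difference of 0.48 ± 0.31 (adjusted p by limma = 0.542). In every library its TE exceeded that of at least 84.2% of the tested genes. Set against Fth1 in the same library, Tfrc footprints were 0.0166 and 0.0277 of those of Fth1 in WT and 0.123 and 0.137 in KO, and Tfrc RNA was 0.0135 and 0.0129 of Fth1 RNA in WT and 0.0319 and 0.0348 in KO.

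Erythroid precursors carry much transferrin receptor, so their markers are given beside Tfrc. Of 13 erythroid markers 12 were in the table, and their summed RNA was 85.4 and 77 RPKM in WT and 423 and 516 RPKM in KO. In RNA 6 of the 12 were higher in both KO libraries and 1 lower, beside 44.4% and 37.6% of all tested genes. Globin transcripts made up most of the sum, with Hba-a1 at 40.9 and 34.3 RPKM in WT and 197 and 241 RPKM in KO. The membrane and lineage genes Klf1, Epor, Slc4a1, Ermap and Rhag were at most 0.682 RPKM of RNA in every library, while Gata1, also low, was 0.0429 and 0.0678 RPKM in WT and 0.713 and 0.891 RPKM in KO, without overlap. Summed erythroid footprints were 32.7, 150 and 1086, 52 RPKM in the same order, overlapping between the groups. The part of such cells in the Tfrc result was not tested, and in bulk samples fewer or more cells of a type and a changed RNA level per cell cannot be told apart.

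Slc11a2 (DMT1) moves ferrous iron out of endosomes after its uptake with transferrin. Its RNA was 3.49 and 3.93 RPKM in WT and 2.25 and 1.74 RPKM in KO, and it fell by 0.66 log2 units (SE 0.11, limma with adjusted p = 0.00202). Tfrc and Slc11a2, both carrying IREs behind the coding sequence, therefore moved in opposite directions in RNA; the table does not separate the Slc11a2 isoforms with and without the element. Footprints of Slc11a2 were 15.9 and 5.73 RPKM in WT and 13.3 and 7.84 RPKM in KO, from 26, 7, 9 and 4 reads, and a difference was not detectable at this depth (log2 difference 0.07 ± 0.60; adjusted p by limma = 0.96). Pooled reads put KO over WT at 0.947 (exact 95% limits 0.457 and 1.85, from counting error alone).

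Slc40a1, ferroportin, is the iron exporter of the cell and has an IRE ahead of its coding sequence, as ferritin does. Its RNA was 13.7 and 15.2 RPKM in WT and 14.7 and 14.1 RPKM in KO, with a log2 difference of -0.0041 ± 0.08 (adjusted p by limma = 0.969). Its footprints were 45.3 and 49.9 RPKM in WT and 49.8 and 83.2 RPKM in KO, from 68, 56, 31 and 39 reads. KO replicate 1 lay between the WT libraries and KO replicate 2 above them, and the log2 difference of 0.43 ± 0.37 did not pass (adjusted p by limma = 0.578). TE was 3.14 and 3.14 in WT and 3.24 and 5.58 in KO. The 3 mRNAs with an IRE ahead of the coding sequence thus did not share a direction in footprints: Fth1 and Ftl1 were lower in both KO libraries, and Slc40a1 was not. None of these 3 footprint differences passed, and the difference between the genes was not tested. The values are per gene and do not separate isoforms.

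Aco1 encodes cytosolic aconitase, which becomes IRP1 when it loses its iron-sulfur cluster. Its footprints were 53 and 49.1 RPKM in WT and 13.4 and 16.4 RPKM in KO, from 124, 86, 13 and 12 reads. The groups lay far apart relative to the gap within each, with the log2 difference furthest from 0 of the 9 members at -1.72 ± 0.32 (adjusted p by limma = 0.105). Pooled reads gave WT over KO as 3.49 (limits 2.30 and 5.52 by the same exact method). RNA of Aco1 was 12.1 and 12.6 RPKM in WT and 5.32 and 4.91 RPKM in KO, and it fell by 1.13 log2 units (SE 0.08, limma with adjusted p = 3.36e-05). TE was 4.13 and 3.68 in WT and 2.27 and 2.95 in KO, a log2 difference of -0.59 ± 0.33 (adjusted p by limma = 0.494).

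Ireb2 encodes IRP2, which has no enzyme activity and is removed by the proteasome when iron is plentiful. Its RNA was 3.82 and 3.39 RPKM in WT and 4.48 and 4.20 RPKM in KO, a log2 difference of 0.21 ± 0.09 that did not pass (adjusted p by limma = 0.0801). Footprints were 25.8 and 23.1 RPKM in WT and 18.5 and 17.2 RPKM in KO, from 67, 45, 20 and 14 reads, lower in both KO libraries by a log2 difference of -0.43 ± 0.32 (adjusted p by limma = 0.529). TE was 5.55 and 5.50 in WT and 3.57 and 3.51 in KO. The gap between replicates was small in each group, but limma weighs it with the spread of other genes, and the log2 difference of -0.64 ± 0.30 had an adjusted p of 0.447. The 2 IRP genes therefore differed in RNA, where Aco1 fell and Ireb2 did not pass, while both had lower footprints in KO; the difference between them was not tested.

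The F-box protein Fbxl5 senses iron and marks IRP2 for degradation together with Skp1a, Cul1 and Rbx1. Of the 6 genes of this list, the 2 IRP genes included, 1 rose and 4 fell in RNA and 0 passed in footprints (60.8% of all tested genes passed in RNA; median log2 differences -0.30 and -0.48, against 0.04 and -0.13 over all tested genes). RNA of Fbxl5 was 15.1 and 15.4 RPKM in WT and 7.31 and 8.80 RPKM in KO, and fell by 0.85 log2 units (adjusted p by limma = 0.000271). Its footprints were 19.2 and 18.7 RPKM in WT and 61.2 and 31.5 RPKM in KO, higher in both KO libraries (adjusted p by limma = 0.258), so that RNA and footprints of Fbxl5 pointed in opposite directions. RNA of Rbx1 rose by 0.57 ± 0.08 and that of Cul1 fell by 0.31 log2 units (adjusted p by limma = 0.000641 and 0.00657); the Cul1 call was lost without WT replicate 1 and without WT replicate 2 (0.054 and 0.0598).

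Hmox1 opens the heme ring and frees its iron, and is induced by heme and by oxidative stress through NRF2. Its RNA was 58.3 and 56.6 RPKM in WT and 9.43 and 8.88 RPKM in KO, and it fell by 2.53 log2 units (SE 0.07, limma with adjusted p = 2.53e-07), at percentile 0.673 of the RNA differences of all tested genes. Footprints were 80.1 and 94.9 RPKM in WT and 25.3 and 33.7 RPKM in KO, from 61, 54, 8 and 8 reads. They were lower in both KO libraries, with a log2 difference of -1.55 ± 0.32 (adjusted p by limma = 0.125) and pooled reads 2.99 times higher in WT (exact 95% limits 1.76 and 5.41). As the footprint difference was smaller than that of RNA, TE was higher in KO, at 2.53 and 3.51 against 1.37 and 1.66 in WT, a log2 difference of 0.98 ± 0.35 (adjusted p by limma = 0.366, unadjusted p = 0.0397).

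Macrophages that recycle red cells carry much Hmox1 and Slc40a1, and their markers are given beside Hmox1. Of 15 macrophage markers 13 were in the table, and their summed RNA was 422 and 426 RPKM in WT and 311 and 294 RPKM in KO, most of it Cd68. In RNA 6 of the 13 were lower and 6 higher in both KO libraries, beside 37.6% and 44.4% of all tested genes. Of the 6 that passed the footprint filter 5 fell and 1 rose, beside 27.7% and 33.1% of all tested genes. The filter left out C1qa, C1qb, C1qc, Spic and Cd5l, whose RNA was higher in both KO libraries, so this split depends on it. Summed footprints of the 13 were 899 and 1036 RPKM in WT and 349 and 502 RPKM in KO. In footprints 7 markers were lower and 2 higher in both KO libraries, beside 32.1% and 20.5% of all tested genes. The same shares apply to the marker counts that follow. RNA of Csf1r fell to 7.63 and 8.65 RPKM from 41.4 and 42.7 RPKM, and that of Vcam1 to 5.15 and 5.55 RPKM from 29.3 and 29.5 RPKM, while that of the complement gene C1qb was 6.34 and 6.98 RPKM in WT and 12.2 and 12.8 RPKM in KO. Spic, the regulator of iron-recycling macrophages, had 0 footprints. Its RNA was low, at 0.259 and 0.301 RPKM in WT and 0.565 and 0.535 RPKM in KO, without overlap. Summed RNA of 9 neutrophil markers was lower in KO as well, at 2768 and 3348 against 8365 and 7725 RPKM, with S100a8 its largest part. Single neutrophil markers differed in direction, 6 lower and 2 higher in RNA and 5 lower and 4 higher in footprints. Footprints of Ltf, lactoferrin, rose from 12.8 and 12.8 to 136 and 101 RPKM (adjusted p by limma = 0.0314). Its RNA overlapped, at 18.4 and 22.3 RPKM in WT and 29.5 and 16.4 RPKM in KO. With all 4 libraries, the Ltf call was lost with no filter, when filtering on RNA and with the replicate block (adjusted p by limma 0.0605 to 0.0982). With a library left out the log2 difference of Ltf footprints ran from 2.88 to 3.31, and the call was not kept without either WT library. Of 8 T and NK cell markers 7 were in the table. Their summed RNA was 433 and 363 RPKM in KO against 17.6 and 17.2 RPKM in WT. Nearly all of that sum was Nkg7, at 426 and 356 RPKM in KO against 15 and 14.6 RPKM in WT. In RNA 5 of the 7 were higher and 0 lower in both KO libraries. In footprints 1 was higher and 2 were lower. Of 8 mast cell and basophil markers 7 were in the table. Their summed RNA was also higher in KO, at 307 and 297 against 33.1 and 30.4 RPKM in WT, with Cpa3 its largest part. In RNA 6 of the 7 were higher and 0 lower in both KO libraries, and in footprints 7 were higher and 0 lower. Of the 5 tested, 5 rose in RNA and 3 in footprints (Cpa3, Gata2 and Hdc), beside 33.1% and 0.595% of all tested genes. The footprint calls of Gata2 and Hdc were lost with no filter, when filtering on RNA and with the replicate block, and that of Gata2 also with limma-voom. Markers low in WT may have passed the filter through KO alone. The part of these cells in the results on Hmox1, ferritin and Aco1 was not tested.

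**Figure D3:**
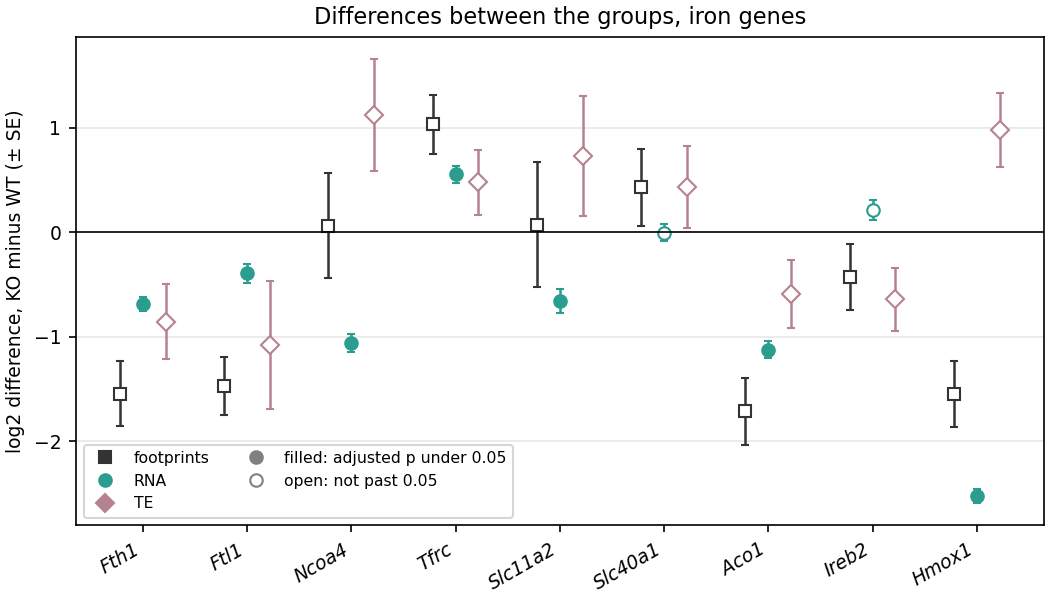
Log2 differences, KO minus WT, of the 9 iron genes in footprints, RNA and TE, with SE from limma (2 libraries per group); filled symbols passed an adjusted p of 0.05. Every filled symbol is an RNA value, 6 below 0 and Tfrc above it, and no footprint or TE value passed.

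Groups did not overlap for 6 of the 9 in footprints (5 lower, 1 higher), against 52.5% of all tested genes (20.5% higher, 32.1% lower). In RNA they did not overlap for 8 of the 9, 2 higher and 6 lower, against 82% (44.4% higher, 37.6% lower). In TE they did not overlap for 8 of the 9, 4 higher and 4 lower, against 48% (15.6% higher, 32.3% lower). For footprints, RNA and TE in turn, the 9 had median log2 differences of -0.43, -0.66 and 0.43, beside -0.13, 0.04 and -0.15 over all tested genes. In the authors' deposited table, 5 of the 9 had a p under 0.05 for TE (Ireb2 0.000211, Tfrc 0.0141, Ftl1 0.0156, Aco1 0.0424 and Hmox1 0.0497), against 20.9% of the 16442 genes. For 16250 of 16250 genes compared, that column matched within 1e-06 an unadjusted one-sided p computed from TE itself, not its log, under equal variances.

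Over the 4 libraries, the profile most like that of Fth1 belonged to Etfdh, an electron carrier of fatty acid oxidation, then Csf2ra, the alpha chain of the GM-CSF receptor, and Atp6v0a2, a subunit of the vacuolar proton pump. Likeness was the Euclidean distance over 8 values, log2 footprints and log2 RNA in each library, each readout centred on its mean. The distances were 0.309, 0.313 and 0.329, against a median of 1.89 over all tested genes. Aco1 came 36th and Ftl1 55th of 6388 genes in this order, and Tfrc came 5577th. The distance includes the group difference itself.

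Beyond the 9, the pathway lists held 92 genes of the table, 57 of them tested. Their RNA rose for 13, fell for 22 and did not pass for 22, 61.4% against 60.8% of all tested genes, with a median log2 difference of -0.11. In footprints 0 of the 57 passed limma, with 16 at an unadjusted p under 0.05 against 18.2% of all tested genes, and in TE 0 passed, with 8 against 13%. The counts of single lists in RNA, here and for the IRP genes above, stand beside 33.1% of all tested genes higher and 27.7% lower, and no list was tested against other genes.

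**Figure D4:**
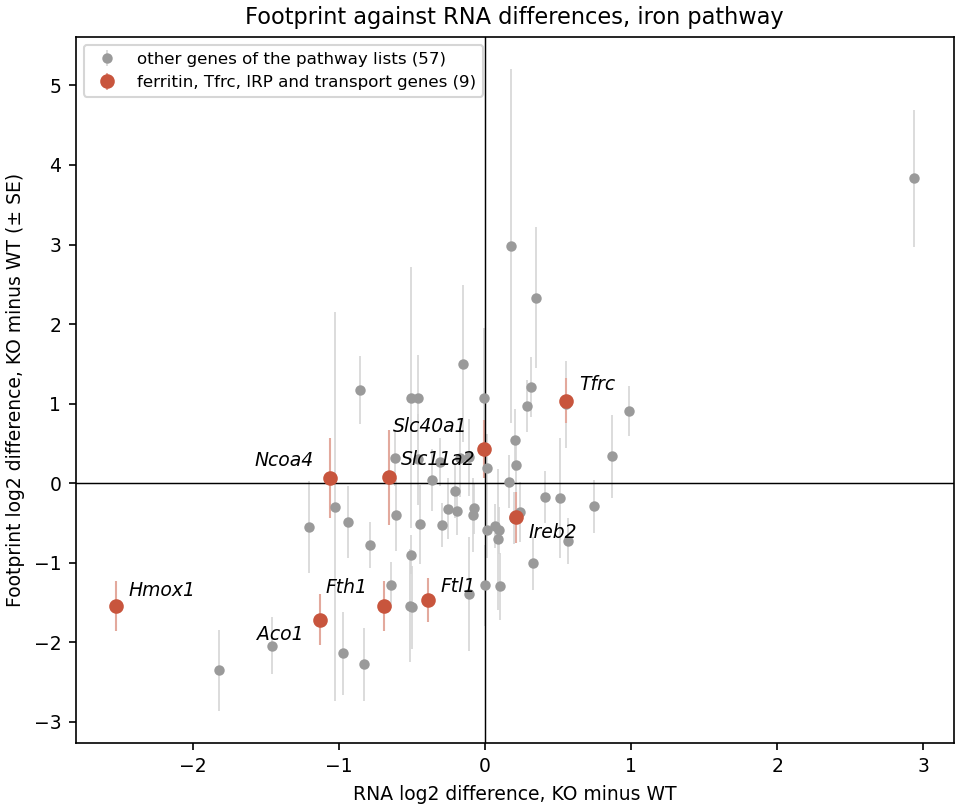
Log2 differences, KO minus WT, in footprints (vertical, with SE) against RNA (horizontal) for the 57 other tested genes of the pathway lists and the 9 iron genes. Fth1, Ftl1, Aco1 and Hmox1 lie in the lower left, Tfrc in the upper right; the point at the far right is Slc22a17.

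Of 10 tested genes of iron uptake, Tfrc and Slc11a2 included, RNA rose for 2, fell for 7 and missed the threshold for 1, and 0 passed in footprints (medians -0.56 in RNA and -0.22 in footprints). Slc22a17, a receptor of the siderophore-binding protein lipocalin 2, rose from 1.91 and 1.90 to 20.9 and 21.6 RPKM of RNA, and its footprints were 2.97 and 0.795 RPKM in WT and 78.8 and 17.1 RPKM in KO (adjusted p by limma = 0.139). Cd163, the macrophage receptor of haptoglobin-bound hemoglobin, fell from 2.02 and 2.55 to 0.109 and 0.279 RPKM of RNA. Slc11a1, an iron and manganese transporter of phagosomes, fell from 11.6 and 10.8 to 4.63 and 3.96 RPKM. Among exporters, RNA of the heme exporter Flvcr1 rose from 0.697 and 0.702 to 1.37 and 1.47 RPKM and that of Abcg2 from 0.674 and 0.723 to 1.06 and 1.16 RPKM, both at low levels. Footprints of Abcg2 were 4.59 and 5.37 RPKM in WT, and those of Cd163 were 3.95 and 5.24 RPKM in KO. Slc22a17 and Abcg2 may thus have passed the footprint filter through KO alone, and Cd163 through WT alone. The Abcg2 call was lost in 6 of 11 alternatives, the replicate block and leaving out WT replicate 1, WT replicate 2 or KO replicate 2 among them (adjusted p by limma 0.0507 to 0.138).

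Of 6 storage genes, the 3 members included, RNA rose for 1, fell for 3 and missed the threshold for 2, and 0 passed in footprints. The gene that rose was Herc2, a ubiquitin ligase reported to act on Ncoa4, at 2.58 and 3.04 against 2.11 and 1.64 RPKM. That call was lost in 4 of 11 alternatives, among them without WT replicate 2 and without KO replicate 2 (adjusted p by limma 0.0505 to 0.138). Of 8 tested genes of heme degradation RNA rose for 0, fell for 6 and missed the threshold for 2 (median -0.63). The biliverdin reductases Blvra and Blvrb, which act after Hmox1, fell by 1.03 and 0.97 log2 units and Hmox2, the constitutive heme oxygenase, by 0.64 (adjusted p by limma = 4.38e-05, 0.000321 and 0.000681). Footprints of Hmox2 were 228 and 223 RPKM in WT and 78.5 and 108 RPKM in KO, and those of Blvrb 51 and 55 RPKM in WT and 6.83 and 18.1 RPKM in KO, in both cases without overlap and without passing (adjusted p by limma = 0.146 and 0.16). Of the NRF2 targets, a list that holds Fth1, Ftl1 and Hmox1, 9 were tested, and 1 rose and 6 fell in RNA. Nqo1, Slc7a11 and Srxn1 were not tested. RNA of Nqo1 was 1.75 and 1.74 RPKM in WT and 5.03 and 4.99 RPKM in KO. That of Slc7a11 and Srxn1 was lower in both KO libraries. Pgd and G6pdx of the pentose phosphate pathway fell by 0.79 and 0.51 log2 units, while Gclc, of glutathione synthesis, rose by 0.75 (adjusted p by limma = 4.42e-05, 0.00112 and 0.0152). The Gclc call was lost without WT replicate 2 and with no filter (0.0665 and 0.115), and its difference ran from 0.42 to 1.07 with a library left out.

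Heme synthesis went both ways, with 3 of 7 tested genes up and 3 down in RNA. Fech, which inserts iron into the ring, rose from 15.3 and 15.3 to 31.4 and 31 RPKM of RNA, and its footprints were 18 and 15.8 RPKM in WT and 31.7 and 33.3 RPKM in KO (adjusted p by limma = 0.242). Abcb10, a transporter of the inner mitochondrial membrane, rose by 0.55 ± 0.08 and Urod fell by 0.51 log2 units in RNA (adjusted p by limma = 0.000701 and 0.000836). RNA of Alas2, the erythroid enzyme with an IRE ahead of its coding sequence, was 0.827 and 0.71 RPKM in WT and 3.46 and 3.81 RPKM in KO, with almost no footprints, and was not tested.

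In iron-sulfur cluster assembly few genes passed in RNA. Of 6 tested mitochondrial genes 1 rose (Fdx1, a ferredoxin, by 0.29 ± 0.09) and 0 fell, and of 9 tested cytosolic genes 2 rose, Bola2 by 0.87 ± 0.12 and Ciao2a by 0.33 ± 0.08 (SE, log2 scale), and 0 fell. Called were thus 16.7% and 22.2% of the tested genes of these lists, beside 60.8% of all tested genes, a difference that was not tested. Their footprint medians were -0.51 and -0.40, with 0 passing. The call of Fdx1 was lost in 4 of 11 alternatives, among them without WT replicate 1, WT replicate 2 and KO replicate 1 (adjusted p 0.0608 to 0.168), and that of Ciao2a without WT replicate 1 and without WT replicate 2 (0.062 to 0.152). Among factors that bind and destabilise mRNAs such as that of Tfrc, RNA of Zfp36 fell from 109 and 108 to 29.6 and 30.5 RPKM and that of Zfp36l2 from 59.3 and 57.9 to 31.5 and 28.9 RPKM, while Rc3h2, of the Roquin family, rose from 0.97 and 0.904 to 1.47 and 1.46 RPKM, a call lost without WT replicate 1 and without WT replicate 2 (adjusted p by limma 0.0651 and 0.0992). Of the 4 tested genes of this list RNA rose for 1, fell for 2 and did not pass for 1, and 0 passed in footprints. Footprints of Rc3h2 were low in WT, at 1.28 and 4.28 RPKM, so it may have passed the filter through KO alone. RNA of Zc3h12a, in the list but not tested, was 2.79 and 3.36 RPKM in WT and 2.98 and 2.73 RPKM in KO, with overlap. That of Zfp36l1, also not tested, was 4.55 and 3.74 RPKM in WT and 6.37 and 7.09 RPKM in KO. A link between this list and Tfrc RNA was not tested.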

How the data were processed

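Per the labels' protocols, micrococcal nuclease trimmed the lysates (30 minutes, 10 µg/ml), gel-selected fragments spanned 25 to 40 nucleotides, and undigested lysate served as the RNA input. Per the submitters' processing notes, the tools included HISAT2 2.1.0 along with featureCounts, CASAVA and DESeq2, and the build is given as hg38, a human build, for mouse samples; annotation and the role of each tool are not given in the sources used here. The authors deposited footprint values that behave as RPKM plus 1 (read from the values), TE as the ratio of that value to an RNA value with the same floor, and 1 p-value per gene.

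RNA was taken as footprint value over TE, minus 1. The RPKM steps gave whole footprint reads for 10536 of the 10536 genes seen in at least 2 libraries, within 0.002 reads. The 6389 genes with at least a CPM of 20 in at least 2 libraries were fitted in R 4.3.3 with limma 3.58.1 (mean-variance trend, group as the only term, two-sided, Benjamini-Hochberg, threshold 0.05) on log2 of RPKM plus a pseudocount of 1; log2 TE was the difference of both. The count test named first in the plan was not used, as the table holds no counts. Fold changes on this scale understate changes of low genes. A gene could pass the filter through the 2 libraries of 1 group alone. Counts of tested genes that rose or fell in a list depend on this filter. Alternatives changed the pseudocount, the filter, the scaling, a replicate block, the libraries left out and, for footprints, the model (limma-voom on recovered reads). Recovery and fit were tested on simulated data. Named genes were the 9 members, Rreb1, the 3 most like Fth1 and a choice from each list. That choice was up to 3 genes with the largest difference among those that passed. Genes named beyond these (Kit, C1qa, C1qb, C1qc, Spic, Cd5l, Cd68, the erythroid genes, Skp1a, Nqo1, Slc7a11, Srxn1, Zc3h12a, Zfp36l1, Alas2 and the pseudogenes) were chosen after their values were seen. Old symbols were matched through synonyms of GRCm38.p6, and no coordinates of the table were used. Members and lists were chosen with earlier results of these data known. Recovered reads carry no molecular identifiers, so intervals cover counting error only.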

Additional observations from a re-analysis of the deposited data

How the results depend on the processing

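The 9 members kept their direction and their side of the threshold in most alternatives: 92 footprint values did so, 4 turned direction and 3 gained a call, and in TE 90 did so and 0 did not. In RNA the calls of Hmox1, Aco1, Ncoa4, Fth1, Slc11a2 and Tfrc held in all 11 alternatives, and that of Ftl1 was lost in 3. Footprint directions of Ncoa4 (-0.46 to 0.59) and Slc11a2 (-0.59 to 0.74) turned with the library left out, and the RNA difference of Slc40a1, near 0, ran from -0.073 to 0.065 with a library left out, and was 0.012 with libraries centred on their medians. Without KO replicate 2, 3 members passed in footprints (Aco1, Ftl1 and Hmox1), and 0 without any other library; a lone library is then assumed to vary like the other group.

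The number of genes called in footprints, 68, was 110 with a pseudocount of 5, 31 when filtering on RNA (1 RPKM or more, 2 libraries), 0 with no filter (1674 at an unadjusted p under 0.05) and, with a library left out, 0 without either WT library, 336 without KO replicate 1 and 1097 without KO replicate 2. In RNA, 3882 became 6286 with no filter and 6497 with the RNA filter, where more genes are tested. In TE, 0 became 1 with a pseudocount of 5 and, with a library left out, 0 without either WT library and 149 and 699 without KO replicates 1 and 2. The cause was not tested. With the replicate block 32 genes were called in footprints, and the block changed no member's call; same-numbered libraries did not deviate together (r = 0.0226 over genes in footprints and -0.335 in RNA), so the numbers were not taken as pairs. A crossed pairing, added after seeing the data, called 4395 genes and 8 members in RNA. KO footprint depth limits the precision for Slc11a2, Ncoa4 and Hmox1.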

Other observations

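Footprints of a few genes of the iron lists, chosen after their values were seen, were several times higher in 1 library than in any other. Pcbp2, an iron chaperone of ferritin, had 14843 RPKM in KO replicate 1 against 147 and 215 RPKM in WT and 134 RPKM in the other KO library, while its RNA lay between 9.41 and 11.7 RPKM. Pcbp1 had 3382 RPKM in KO replicate 1 against 372, 501 and 444 RPKM. Urod had 1375 RPKM in KO replicate 2 against 129, 102 and 42.4 RPKM. Blvra ranged widely over all 4 libraries, at 299 and 48.8 RPKM in WT and 7.76 and 1130 RPKM in KO.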
